A study of Mus musculus with 2 samples.

Results

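Mature sebocytes were taken from skin of mice on postnatal day 3 by a marker rule. A barcode counted as one when it had at least 1000 UMIs (unique molecular identifiers, 1 per captured RNA molecule), at least 500 genes and under 15% mitochondrial UMIs. It also had to detect at least 5 of 12 rule genes, with those genes at 10 or more per 10000 UMIs and Col1a1 plus Col3a1 under 20 per 10000. The rule genes were Awat1, Awat2, Cidea, Mc5r, Elovl3, Elovl4, Scd3, Dgat2l6, Cyp2g1, Acsbg1, Pparg and Mgst1. The rule found 318 cells among the 10436 barcodes that passed the cell filter, out of 18186 barcodes. Of these, 304 came from the control and 14 from the induced library. Because the members were chosen by their RNA levels, their levels against other cells are a description and were not tested.

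The control library was labelled Wildtype and the other library miR-200b induced, and Dox is the treatment given for each. The labels name neither the construct or promoter behind the induction nor the number of animals in a library. Dorsal epidermis and dermis were dissociated apart, mixed at 30% epidermal to 70% dermal cells, and read with a droplet assay for the 3′ ends of polyadenylated RNA. With 1 library per group and cells that are not replicates, no test between groups of cells or libraries was possible. The intervals given with levels (exact Poisson) and shares (exact Clopper-Pearson) are 95% intervals and cover counting error only.

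Sebocytes are the lipid-storing epithelial cells of the sebaceous gland, which opens into the hair follicle. Cells at the rim of the gland divide, move inwards, fill with droplets of triglycerides, wax esters, squalene and sterol esters, and finally burst to release their content as sebum, a process called holocrine secretion. The nuclear receptor PPARG is a known driver of sebocyte differentiation, and the SREBP factors switch on genes of fatty acid and cholesterol synthesis in many cell types.

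The 2 libraries held 100409201 and 119705137 UMIs. They shared 74 barcode sequences, of which 10 passed the cell filter in both and 1 was a control sebocyte. Epithelial cells numbered 4162 and 4419 in the control and induced libraries. They were taken by keratin level and by low collagen and low non-epithelial markers, with sebocytes counted in by their own rule alone. The control sebocytes had a median of 24913.5 UMIs, compared with 15718 in the other 3858 control epithelial cells, and median mitochondrial shares of 5.91% and 5.48%. Of the control sebocytes, 18 were among the 7% of barcodes with the highest doublet scores in their library.

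The rule cut through a continuous range of cells. The lowest control sebocyte had the rule genes at 10.2 per 10000 UMIs and the highest cell left out by that limit had 9.76. The 69 sebocytes with exactly 5 rule genes had a median sum of 18.8 per 10000, and the 91 control cells with 4 rule genes that met the sum had a median of 14.9. Collagen separated more widely, at 10 per 10000 in the highest sebocyte and 37.5 in the lowest cell left out. The 788 other control epithelial cells with 3 or 4 rule genes stood at 26.1 CPM for Scd1, 48.5 for Pparg and 4243 for Krt79, a duct keratin, in UMIs per 1000000 UMIs of the group (CPM), and at 9215 CPM for Krt1, a keratin of the upper epidermis. At the other end, 31 control sebocytes had UMIs of all 12 rule genes.

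RNA of other skin cells was low in the sebocytes. The rule genes, by which the cells were chosen, summed to 14985 CPM in control sebocytes, 301 CPM in other control epithelium and 88.9 CPM in collagen-high cells. Collagen-high cells served as background, but they are cells and not empty droplets, so free RNA in the droplets was not measured on its own. The 10 fibroblast markers summed to 55.7 CPM in sebocytes, 295 CPM in other epithelium and 78255 CPM in collagen-high cells. Col1a1 and Col3a1 are on that list. They were limited in sebocytes and other epithelium and defined the collagen-high cells, so this contrast was partly set by the selection. The 8 immune markers summed to 1.80 CPM with 3 of them at 0, and the endothelial, melanocyte, pericyte and glial lists to 12.2, 18.7, 31.2 and 8.71 CPM. The 10 adipocyte markers stood higher in sebocytes, at 164 CPM against 54.6 CPM, with 2 of them at 0. Most of that sum was Adipor2, an adiponectin receptor that is not restricted to fat, at 131 CPM, while Adipoq, the adiponectin gene itself, stood at 0.189 CPM. Another of these markers, Fabp4, was lower in sebocytes than in other epithelium. Retn, also on the list, was higher in the late than in the early sebocytes described further on, as was Adipor2.

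**Figure D1:**
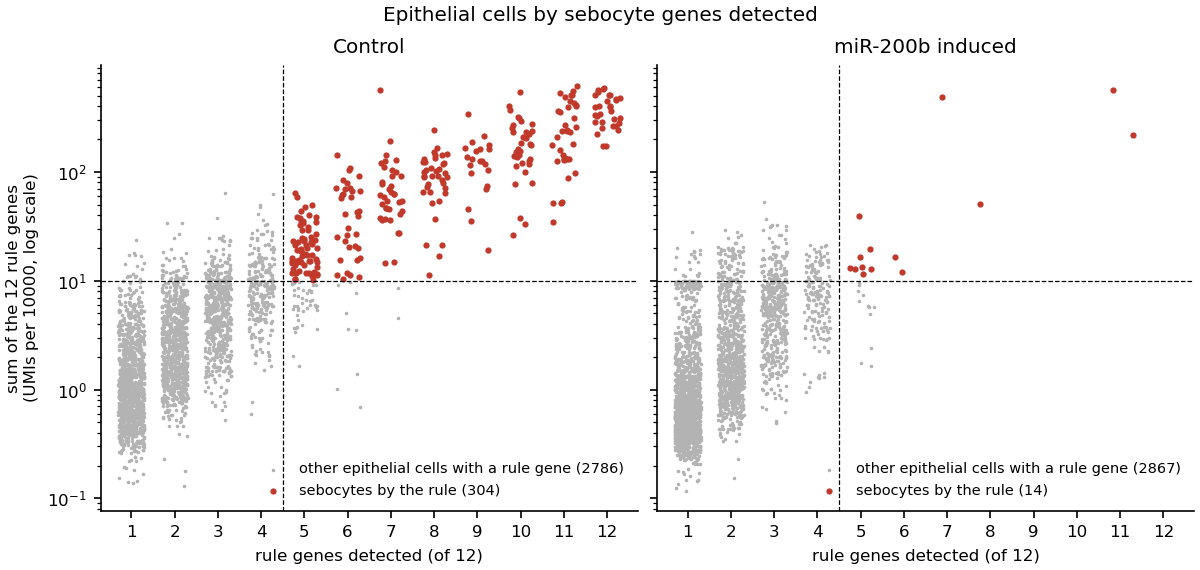
Each point is an epithelial cell with at least 1 rule gene, placed by the number of rule genes detected (x axis) and their sum in UMIs per 10000 (y axis, log scale), for the control (left) and induced (right) library. Dashed lines mark the limits of the rule, and the sebocytes (red) number 304 in the control panel, where they run from 5 to 12 rule genes, and 14 in the induced panel.

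The rule genes varied widely among the sebocytes themselves. Shares of cells with a UMI are given here at each cell's full depth. The rule itself asked each cell for at least 5 of these genes, so the shares were partly set by the selection. Acsbg1 and Mgst1, an acyl-CoA synthetase and a microsomal glutathione transferase, had a UMI in 100% of control sebocytes, and Cidea, a protein of lipid droplet growth, in 97.0%. Wax ester and lipid enzymes were patchier. Awat1, which makes wax esters, had a UMI in 41.1% of control sebocytes, and its per-cell level had a lower quartile and a median of 0, an upper quartile of 1.68 and a maximum of 84.4 per 10000 UMIs. Dgat2l6, of the same acyltransferase family, had a UMI in 25%, and Scd3, a desaturase, in 31.9%. Elovl3 and Elovl4, which lengthen fatty acids, ran from a lower quartile of 0.417 and 0 to an upper quartile of 19.9 and 18.1 per 10000. Mc5r, the melanocortin receptor of sebaceous glands, had a UMI in 42.1% and never passed 4.83 per 10000.

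Fatty acid synthesis genes stood far above the rest of the epithelium. Of 25 genes on the list for synthesis, elongation and desaturation, 19 were measured well enough to compare (at least 100 UMIs over both groups of cells and 20 CPM in one), and all 19 of these were called higher in sebocytes. A call needed a 2-fold difference with 5 CPM added and intervals apart, and 11.2% of the 6615 genes compared were called higher and 11.8% lower. The median log2 difference of the list was 3.32, beside -0.04 over all genes compared. Scd1, the main stearoyl-CoA desaturase, stood at 4656 CPM (4615 to 4698) in sebocytes and 17.8 CPM (16.9 to 18.8) in other epithelium, a log2 difference of 7.67. Fads3, also among the 19, rested on 7 cells described further on. Elovl6, which lengthens palmitate, stood at 5074 and 35.3 CPM (log2 difference 6.98). Fasn, fatty acid synthase, stood at 461 and 26.9 CPM, and Acaca and Acacb, the acetyl-CoA carboxylases that supply it, at 90.0 and 17.2 CPM and at 124 and 0.791 CPM. The level of Scd1 in single sebocytes had quartiles of 0.976, 16.2 and 70.6 and a maximum of 222 per 10000 UMIs. Reads of the near-identical genes Scd1, Scd2 and Scd3 may have been shared in counting, so their separate levels are uncertain.

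After each cell was thinned to 2000 UMIs, 65.2% (59.6 to 70.6) of sebocytes had a Scd1 UMI, compared with 3.69% of other epithelium and 3.33% of collagen-high cells, whose median depth was 9485.5 UMIs. Without thinning the shares were 83.9%, 21% and 11.1%. The thinned share in other epithelium was thus close to that of collagen-high cells, and whether it came from free RNA was not tested. Fa2h, which hydroxylates fatty acids, had a UMI in 37.4% of thinned sebocytes, 0.55% of other epithelium and 0.667% of collagen-high cells (50.3%, 2.77% and 1.99% without thinning), and stood at 1191 and 1.5 CPM in sebocytes and other epithelium (log2 difference 7.52).

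Cholesterol and squalene synthesis followed with smaller differences. Of 23 genes compared, 19 were called higher and 1 lower, and the list had a median log2 difference of 2.08. Msmo1, an enzyme of the late sterol steps, stood at 1611 against 83.4 CPM. Idi1 stood at 393 against 73.9 CPM, Sqle at 220 against 54.4 CPM, and Hmgcs1, which was already at 223 CPM in other epithelium, at 719 CPM. Sc5d, a sterol desaturase, was lower at 15 against 37.5 CPM, and Ebp and Stard4 were among the genes not called.

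The promoters of these genes are shown because the members of the list were high together. RefSeq (GRCm38.p6) gave a window from 250 bases before to 50 after the start for 16 of the 24 genes. The motif CCAAT (or its reverse complement ATTGG, the NF-Y box) was found on either strand in 15 of the 16 windows (93.8%), compared with 41.1% of 27025 genes with such a window and 48.8% of the genes higher in sebocytes. It was also found in 12 of 14 windows of the G2/M list (85.7%), whose genes were low in sebocytes, and in 12 of 22 of the fatty acid list (54.5%). The sterol element TCACNCCAC was found in Hmgcs1 and in no other window of the list. A match to letters is a description and does not show binding. The windows of 2 genes on the plus strand of chromosome 13 are given, with matches to either motif in capitals: Hmgcs1 (chr13:119690101-119690400), with 4 CCAAT matches and the sterol element, and Idi1 (chr13:8885356-8885655), with 2 CCAAT matches.
Hmgcs1: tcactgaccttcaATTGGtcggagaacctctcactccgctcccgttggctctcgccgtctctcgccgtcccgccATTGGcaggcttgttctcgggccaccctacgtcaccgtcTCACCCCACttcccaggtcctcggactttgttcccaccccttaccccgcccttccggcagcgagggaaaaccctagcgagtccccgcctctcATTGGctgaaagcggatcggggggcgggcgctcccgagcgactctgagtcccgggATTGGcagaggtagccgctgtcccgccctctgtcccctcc
Idi1: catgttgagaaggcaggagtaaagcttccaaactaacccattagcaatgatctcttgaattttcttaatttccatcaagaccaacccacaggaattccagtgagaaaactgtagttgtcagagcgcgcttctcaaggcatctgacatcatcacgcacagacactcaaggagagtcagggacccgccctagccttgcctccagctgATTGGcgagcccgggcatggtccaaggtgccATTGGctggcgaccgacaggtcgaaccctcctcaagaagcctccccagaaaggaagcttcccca

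Genes that build and hold the stored lipid were also high. Of 14 triglyceride, wax ester and sterol ester genes compared, 9 were called higher and none lower. Soat1, which esterifies cholesterol, stood at 1457 against 6.20 CPM (log2 difference 7.03), and Far2, which makes the fatty alcohols of wax esters, at 651 against 1.08 CPM (6.75). Dgat1, for the last step to triglycerides, stood at 221 against 13.5 CPM, and Gpam, for the first step, at 95.8 against 10.8 CPM. Of 8 lipid droplet genes, 7 were called higher. Plin2, a coat protein of droplets, stood at 1150 against 84.0 CPM, Fitm2, which helps droplets bud, at 182 against 11.4 CPM, and Pnpla5, a droplet lipase, at 192 against 0.368 CPM.

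Uptake and breakdown genes gave a mixed picture. Of 15 uptake and activation genes, 9 were higher and 2 lower. Fabp5, a fatty acid carrier, stood at 14849 against 1415 CPM, the transporter Slc27a4 at 403 against 13.1 CPM and the synthetase Acsl5 at 889 against 52.4 CPM. Dbi, an acyl-CoA carrier, was lower, at 171 against 484 CPM. Of 17 peroxisome genes, 16 were higher, including Crat, a carnitine acetyltransferase (373 against 3.13 CPM), Scp2, a sterol carrier (1745 against 176 CPM) and Hsd17b4 of peroxisomal oxidation (447 against 53.6 CPM). Of 19 genes of mitochondrial fatty acid oxidation, 10 were higher, with a list median of 1.08. Cpt1a, which admits fatty acids to mitochondria, stood at 22.3 and 22.2 CPM and was not called. Reads of the paralogs Acaa1a and Acaa1b on the peroxisome list may have been shared.

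Among the 29 regulators compared, 5 were higher and 4 lower, beside 11.2% and 11.8% of all genes compared. Cebpa and Cebpb, transcription factors of fat and gland cells, stood at 458 against 135 CPM and 1860 against 507 CPM. Srebf1 stood at 113 against 28.9 CPM and Scap, which escorts SREBP proteins, at 61.6 against 27.5 CPM. Srebf2, the SREBP gene tied to cholesterol synthesis, stood at 110 against 62.8 CPM and was not called. Klf5, Fgfr2, Rara and Trps1 were lower, with Fgfr2, a growth factor receptor, at 13.7 against 73.6 CPM. The rule gene Pparg stood at 219 against 17.4 CPM. Without 10 cells that are described further on, 8 of 30 regulators were lower, Sox9 among them.

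Lists of other differentiation routes and of breakdown are read against the same 11.2% higher and 11.8% lower of all genes. Of 15 sebaceous duct and upper follicle genes 5 were higher and 3 lower, but 2 of 14 higher and 4 lower without those 10 cells. Krt79 stood at 6168 against 1885 CPM and Cst6 at 3835 against 1126 CPM, a log2 difference of 1.76 that was 1.03 without those cells. Of 13 suprabasal epidermal genes 3 were higher and 5 lower (2 and 7 without those cells), and of 4 inner follicle genes 2 were lower (3 without). Of 27 detoxification genes 7 were higher and 5 lower, with Aldh3b2, an aldehyde dehydrogenase, at 460 against 53.3 CPM. Of 29 lysosome and breakdown genes 4 were higher and 4 lower (3 and 6 without those cells), near the share over all genes, with Ctsd, a lysosomal protease, at 1150 against 285 CPM.

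Basal and dividing-cell genes were low. Of 17 basal keratinocyte and adhesion genes, 13 were lower and none higher. Krt5 stood at 599 against 5248 CPM and Col17a1, a hemidesmosome collagen, at 26.0 against 246 CPM. Krt14, the usual partner of Krt5, was not called, at 7888 against 9975 CPM. All 16 G2/M genes and 14 of 15 S phase genes were lower, including Top2a at 44.6 against 228 CPM. At 2000 UMIs per cell, 8.61% (5.7 to 12.4) of sebocytes and 34.9% (33.4 to 36.5) of other epithelium had at least 2 UMIs of the 16 G2/M genes, and 11.7% of collagen-high cells did. Without thinning the shares of sebocytes and other epithelium were 61.8% and 80.7%. The 257 control epithelial cells high for the epidermal keratins Krt1 and Krt10 were also low, at 4.74% (2.47 to 8.14) after thinning. Their share at full depth was 79.0%. Their G2/M and S phase lists summed to 224 and 206 CPM, compared with 428 and 389 CPM in sebocytes. Low levels of these lists were thus not particular to sebocytes. Of 16 stress genes such as Fos and Jun, which can rise during dissociation, 11 were lower, and the list summed to 6288 CPM in sebocytes and 13058 CPM in other epithelium. The part of dissociation in the differences was not tested.

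Beyond the lists, the genes with the largest differences included lipid enzymes. Tmem45b stood at 725 against 0.968 CPM, Cers4, a ceramide synthase, at 1712 against 23.1 CPM, Hsd3b6, a steroid dehydrogenase, at 330 against 0.572 CPM, and Ces4a, a carboxylesterase, at 204 against 0.204 CPM. Hsd17b2, which inactivates sex steroids, stood at 877 against 19.6 CPM. The largest lower difference was in H19, an imprinted long non-coding RNA, at 9.56 (7.79 to 11.6) against 292 CPM (log2 difference -4.35). Stfa3 and Cstdc5, protease inhibitor genes of a multi-copy family whose reads may be shared, stood at 113 against 2153 CPM and 211 against 3613 CPM. Cxcl14, an epithelial chemokine, stood at 29.8 against 489 CPM, and Krt1, a suprabasal keratin, at 313 against 4010 CPM.

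**Figure D2:**
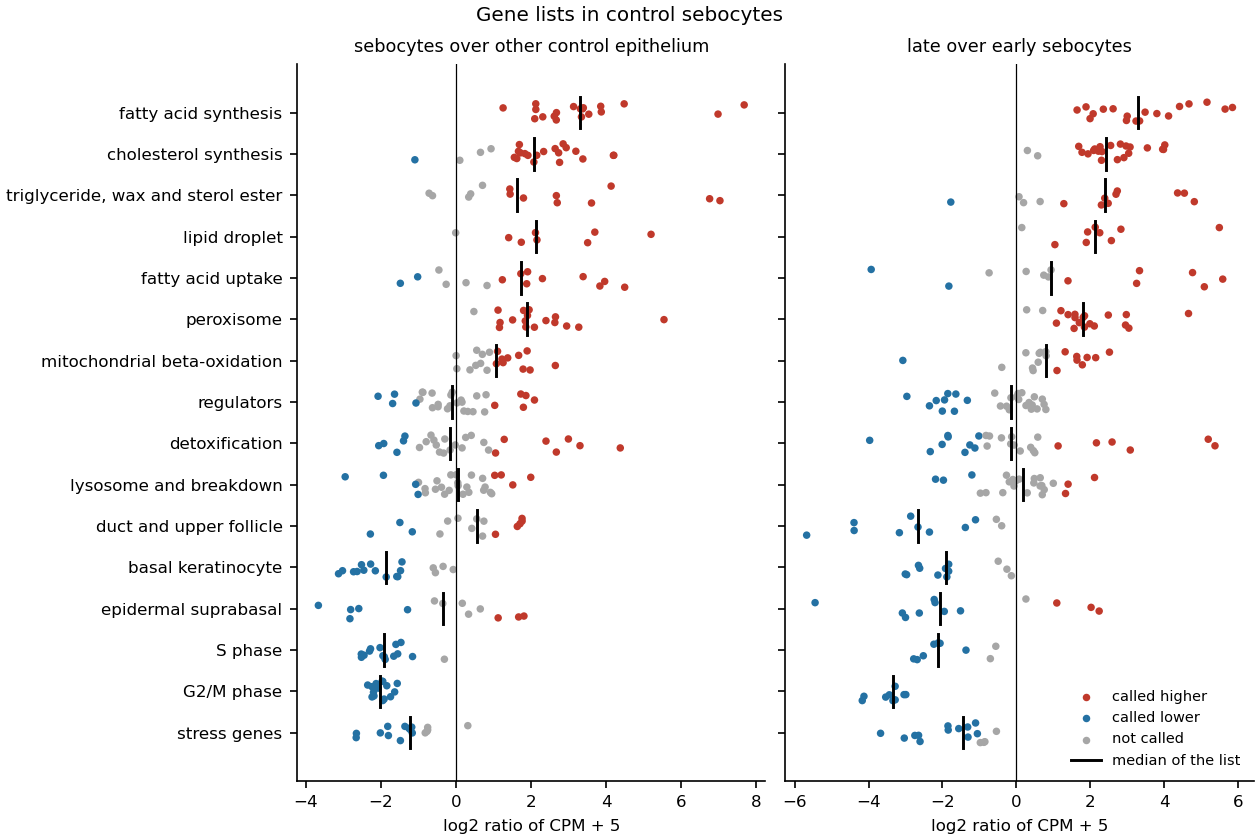
Points are the log2 ratios of CPM plus 5 of the compared genes of 16 lists, for control sebocytes over other control epithelium (left) and late over early sebocytes (right), coloured by call, with a bar at each list median. The fatty acid list has medians of 3.32 and 3.28, and the G2/M list has medians of -2.01 and -3.34.

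The control sebocytes were then ranked by the summed level of 9 rule genes (all but Acsbg1, Pparg and Mgst1) and cut into early, middle and late groups of 102, 101 and 101 cells. The groups are ranges of a score and not cell types: 41 cells lay within a log2 distance of 0.5 of the lower cut and 46 within that distance of the upper. The summed level ran from 0.910 to 12.4 per 10000 in the early group and from 66.3 to 575 in the late group. The median number of rule genes was 5, 8 and 11 in the early, middle and late groups. The median depth was 16522, 26634 and 35884 UMIs per cell, and 3, 11 and 4 cells had top doublet scores. With every cell thinned to 2000 UMIs, 590 genes could be compared, of which 165 were higher and 115 lower in the late group. Early and late name the order of the score, not a measured time.

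The lipid genes separated the early from the late group. Scd1, Elovl6 and Soat1, none of them a rule gene, summed to a median of 2.0 per 10000 UMIs in early cells, 59.1 in middle cells and 220 in late cells. The ranges were 0 to 59.7, 0.122 to 323 and 3.97 to 462. The sum was under 3 per 10000 in 64 of 102 early cells (62.7%), 11 of 101 middle cells and 0 of 101 late cells, with an exact interval that reaches 3.59% for the late cells. In other control epithelium 96.6% of cells were under that level. The 3 genes were among those with the largest differences between these same sebocytes and other epithelium. Scd1 may also share reads with Scd3, a ranking gene, so the 3 genes are not an independent check. As a description, their low levels go against the name mature sebocyte in most of the early group, which is called early here by its score alone.

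**Figure D3:**
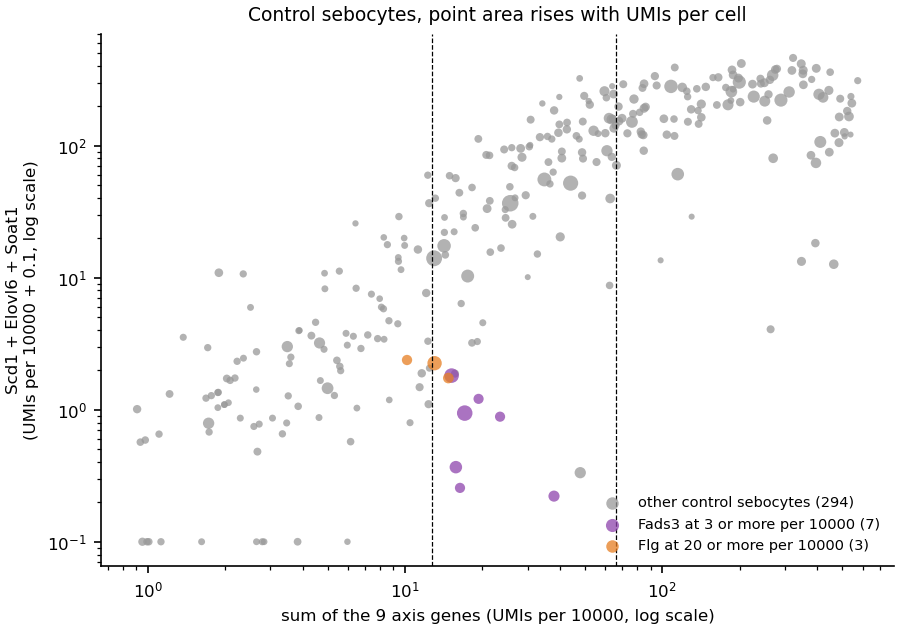
Each point is a control sebocyte, placed by the sum of the 9 ranking genes (x axis) and by Scd1 plus Elovl6 plus Soat1 (y axis, with 0.1 added), both in UMIs per 10000 on log scales, with point area rising with UMIs and dashed lines at the cuts between groups. Late cells lie at 3.97 per 10000 or above for the 3 lipid genes, and the coloured Fads3 and Flg cells lie low, at 0.122 to 2.28.

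From early to late, 841 of 5957 genes compared were called higher (14.1%) and 855 lower (14.4%). All 18 fatty acid genes compared were higher in the late group, with a median log2 difference of 3.28. Scd1 stood at 163 CPM in the early, 1920 in the middle and 9670 in the late group (log2 difference late against early 5.84), and Elovl6 at 195, 2610 and 9998 CPM (5.65). Fa2h stood at 2.91, 250 and 2740 CPM, a log2 difference of 8.44 from the early to the late group. Fasn stood at 57.2, 264 and 861 CPM. Of 22 cholesterol genes, 20 were higher, with Msmo1 at 190, 869 and 3071 CPM. These lists rose through the middle group, and the fatty acid list summed to 2523, 9428 and 33948 CPM in the early, middle and late groups. Cells ranked by falling Krt5 plus Krt14 instead gave a late group that shared 43 of its cells with this one and a different split, of 254 genes higher and 554 lower. Between the rankings 114 genes had opposite calls, and of the genes named in the text Cd36, Ctsd, Cyp1a1, Cyp4f39, Dbi, Plin2, Flg, Krt1 and Krt10 turned direction.

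Most storage genes were higher in the late group. Of 13 ester synthesis genes, 9 were higher and 1, Agpat4, lower, at 70.8, 43.2 and 17.1 CPM. Soat1 was already at 1316 CPM in the middle group, from 92.6 CPM in the early and 2272 CPM in the late group. Far2 stood at 39.8, 357 and 1253 CPM. Dgat2, a triglyceride enzyme, was not called, at 67.9, 111 and 78.4 CPM. Plin2 stood at 493, 745 and 1889 CPM, so its early level was above the 84.0 CPM of other epithelium. Fabp5 stood at 998, 9385 and 27256 CPM, and its early level was below the 1415 CPM of other epithelium. Cd36, a fatty acid receptor, stood at 1.45, 50.6 and 214 CPM. Dbi went the other way, at 339, 240 and 17.6 CPM. Of 19 peroxisome genes, 17 were higher, and of 18 mitochondrial oxidation genes, 8.

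None of the 27 regulators compared was higher in the late group, and 9 were lower. Cebpa differed little along the score, at 464, 447 and 466 CPM. The rule gene Pparg, which is outside the ranking score, stood at 241, 183 and 247 CPM. The median sum in early cells was 4.41 per 10000 for the 9 ranking genes and 21.1 for all 12 rule genes, so early cells met the rule largely through Acsbg1, Pparg and Mgst1, and nothing is read from the early Pparg level. Srebf1 stood at 81.4, 106 and 136 CPM, without a call. The 9 lower regulators included Lrig1, a stem cell marker of the junction above the gland, at 110, 59.5 and 20.5 CPM, and Gata6, a factor of the sebaceous duct, at 43.6, 28.3 and 4.53 CPM. Myc stood at 74.2, 37.2 and 19.8 CPM and Notch1 at 134, 82.7 and 12.9 CPM. Sox9, a follicle stem cell factor, stood at 273, 422 and 84.3 CPM, and its middle level was 225 CPM without the 10 cells described further on.

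**Figure D4:**
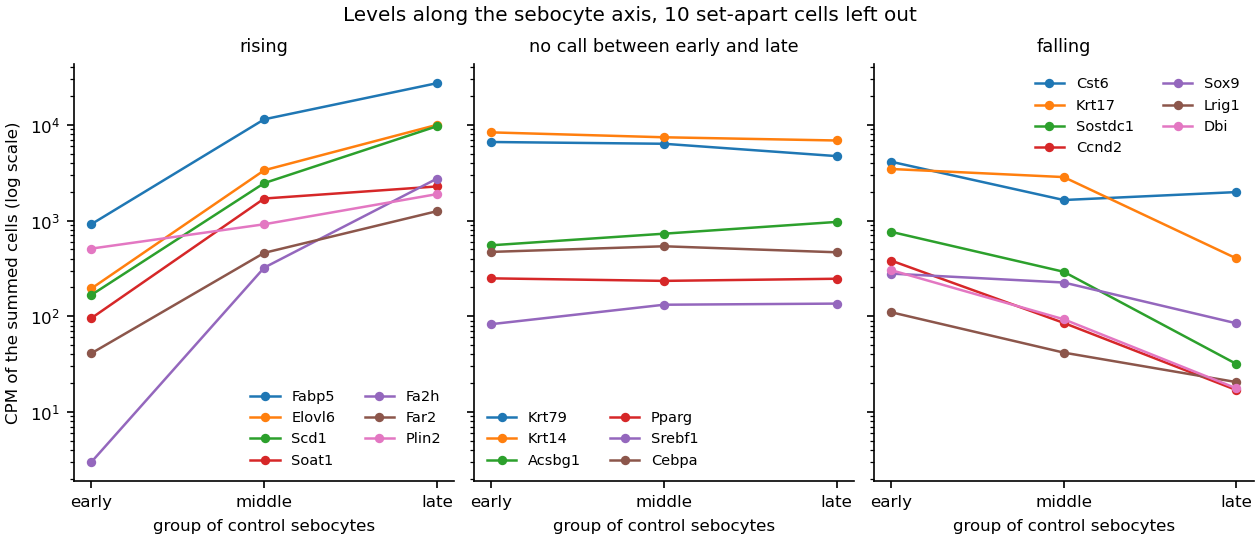
Levels in CPM (y axis, log scale) of 20 genes summed over the early, middle and late groups of control sebocytes, without the 10 cells set apart by Fads3 or Flg. Scd1 climbs from 167 to 9670 CPM in the left panel, the genes of the middle panel had no call between early and late, and Dbi ends at 17.6 CPM in the right panel.

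Duct, adhesion and cell cycle genes were lower in the late group. Of 11 sebaceous duct and upper follicle genes, 9 were lower and none higher, with Krt17 at 3642, 4249 and 402 CPM. Krt79, a duct keratin, was not called, at 6866, 7253 and 4713 CPM. Sostdc1 and Fst, secreted inhibitors of Wnt or BMP and of activin signals, stood at 766, 271 and 31.7 CPM and at 304, 73.6 and 9.77 CPM. Ccnd2, a cyclin of G1 phase, stood at 380, 92.0 and 16.9 CPM. All 9 G2/M genes compared were lower. At 2000 UMIs per cell, 16.7% (10.0 to 25.3) of early, 7.0% (2.86 to 13.9) of middle and 2.0% (0.243 to 7.04) of late cells had 2 or more G2/M UMIs. Without thinning the shares were 73.5%, 58.4% and 53.5%. Of 12 basal genes, 9 were lower, yet Krt14 stood at 8199, 8737 and 6864 CPM without a call. The stress list summed to 9469, 7819 and 3156 CPM, with 12 of 16 genes lower in the late group.

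Detoxification and holocrine breakdown lists are read against the 14.1% higher and 14.4% lower of all genes. Of 27 detoxification genes, 6 were higher and 9 lower in the late group. Cyp1a1, which is induced by dioxin-like compounds, stood at 0.970, 15.6 and 242 CPM, and at 0.191 CPM in other epithelium. Cyp4f39, a fatty acid hydroxylase, stood at 3.88, 21.4 and 319 CPM. Aldh3a1, an aldehyde dehydrogenase, showed the opposite order, at 99.4, 5.81 and 1.67 CPM. Of 24 lysosome, autophagy and breakdown genes, 3 were higher and 3 lower, near the share over all genes. Ctsd, a lysosomal protease, stood at 410, 878 and 1791 CPM, and Gadd45g, a growth arrest gene, at 541, 268 and 115 CPM.

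The early group was also set against the rest of the control epithelium. Of 6363 genes compared, 3.27% were higher in early cells and 4.37% lower. Of 13 peroxisome genes, 7 were higher, of 15 fatty acid genes 5, of 29 regulators 5 and of 14 duct genes 5. The regulators included Cebpa, Cebpb, Srebf1 and Gata6, with log2 differences of 1.75, 1.68, 1.35 and 1.41. The duct genes included Krt79 (log2 difference 1.86) and Cst6, a protease inhibitor (1.92). Scd1 and Soat1 were higher by 2.88 and 3.12 on the log2 scale. Of 16 G2/M genes, 1 was called lower in early cells than in other epithelium, but the list median log2 difference was -0.76. The list summed to 1266 CPM in early cells and 2038 CPM in other epithelium. Among thinned cells, 16.7% (10.0 to 25.3) of early cells and 34.9% (33.4 to 36.5) of other epithelium met the G2/M limit used above. The list was thus lower in early cells as a set, although few of its genes met the limits of a call. These comparisons use the early cells and other epithelium of the comparisons above and are not independent of them.

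A total of 10 deep cells set apart from the others changed several group sums. They were chosen after their values were seen, by Fads3 at 3 or more per 10000 UMIs (7 cells, all in the middle group) or Flg at 20 or more (3 cells, 1 early and 2 middle). None had a top doublet score. The 7 Fads3 cells had 63148 to 189833 UMIs, 5 to 8 rule genes and Scd1, Elovl6 and Soat1 together at 0.122 to 1.71 per 10000, and held 17.2% of the UMIs of the middle group. They had the keratins Krt14 (116 to 253 per 10000), Krt79 (3.3 to 147), Krt17 (15 to 105) and Krt6a (14.1 to 66.2), the duct gene Cst6 (49.9 to 669) and Klk10 (5.45 to 31.3), with the rule genes Elovl4 at 11.2 to 33.8 and Mc5r at 1.35 to 4.83. The 3 Flg cells had Flg, the filaggrin gene of the granular layer, at 106 to 138, Krt10 at 140 to 190, Krt79 at 44.8 to 173 and Cst6 at 90.1 to 296 per 10000. The 10 cells thus had duct genes and some rule genes, while their low Scd1, Elovl6 and Soat1 go against the name mature sebocyte.

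Without them the middle group's Fads3 level went from 159 to 0.3 CPM, Krt6a from 421 to 15.3, Klk10 from 237 to 31.5 and Mc5r from 68.1 to 24.9. Of 12 list genes at least 2-fold above both ends in the middle group, 2 remained, Krt7 and Krt75. The early Flg level of 358 CPM came to 97.6% from 1 cell. Without the set-apart cells it was 9.01 CPM and Flg was not called. Krt10 and Krt1, called lower in the late group with these cells, were not called without them, at 137 and 72.9 CPM and at 75.6 and 65.3 CPM in the early and late groups. Among sebocytes against other epithelium, Krt6a turned from a log2 difference of 1.76 to -1.72 and Klk10 from 1.64 to -0.66. The counts of the fatty acid list (18 of 18 higher), cholesterol list (19 of 23) and G2/M list (16 of 16 lower) stood without them.

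In the induced library sebocytes were few. The rule found 14 cells, 0.317% (0.173 to 0.531) of epithelial cells, compared with 304 cells and 7.30% (6.53 to 8.14) in the control library, a ratio of 23.1 (13.5 to 42.7). The size of the ratio moved with the limits of the rule, and the control share was the higher under each. With at least 4 rule genes the ratio was 6.66 (5.09 to 8.83) and with at least 6 it was 41.6 (18.8 to 114). With the sum at 5 per 10000 it was 16.5 (10.7 to 26.6), and at 20 it was 53.5 (22.6 to 166). With at least 8 rule genes, a limit chosen after seeing the data, the numbers were 3 induced cells (7, 12 and 14 of those described next) and 163 control cells, and the ratio was 57.7 (19.4 to 283).

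**Figure D5:**
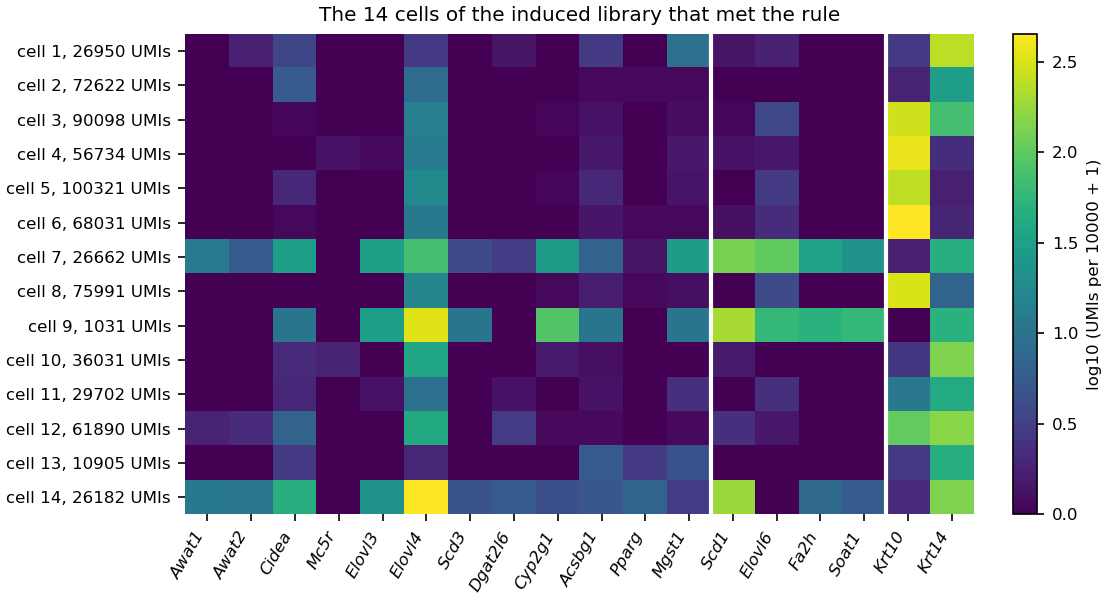
Rows are the 14 induced cells that met the rule and columns are the 12 rule genes, 4 lipid genes and 2 keratins, with colour giving log10 of UMIs per 10000 plus 1. Cells 7, 9 and 14 show Scd1, Fa2h and Soat1, and the other 11 cells show neither Fa2h nor Soat1.

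The 14 induced cells were of unequal kinds. Cells 7, 9 and 14 had 11, 7 and 11 rule genes at 217, 485 and 560 per 10000 UMIs. Cell 7 had 345 Scd1, 266 Elovl6, 87 Fa2h and 58 Soat1 UMIs of 26662. Cell 14 had 466 Scd1, 19 Fa2h and 13 Soat1 UMIs of 26182, but 0 for Elovl6. Cell 9 was shallow, with 1031 UMIs, and had 21 Scd1, 6 Elovl6, 5 Fa2h and 6 Soat1 UMIs. The other 11 cells had 0 Fa2h and 0 Soat1 UMIs and at most 8 Scd1 UMIs, where 0 allows up to 3 UMIs per cell. Elovl4 was the rule gene with the most UMIs in 9 of them, Mgst1 in cell 1 and Acsbg1 in cell 13. In 5 of them (cells 3, 4, 5, 6 and 8) the epidermal keratins Krt1 plus Krt10 stood at 462 to 869 per 10000, and in cell 12, which had 8 rule genes, at 113. Gm13648, a transcript that spans the microRNA, had 1, 0 and 0 UMIs in cells 7, 9 and 14. It was also at 0 in cells 1, 2 and 13 and at 0.263 and 0.278 per 10000 in cells 8 and 10, so low levels were not particular to those 3 cells. The other induced epithelium had a median of 4.99 per 10000 and a UMI in 81.4% of cells. Whether the level of Gm13648 follows the induction in single cells was not tested.

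Over the whole epithelium, sebocytes counted in, the rule genes were lower in the induced library. Of the 12 rule genes 9 could be compared and all 9 were lower, where of 6372 genes 4.71% were lower and 2.72% higher, a count that follows the rule's own genes. Cyp2g1 stood at 268 CPM in control and 0.992 CPM in induced epithelium, Elovl3 at 184 and 1.43 CPM, and Scd1 at 602 and 16.7 CPM. Elovl4 differed least of these, at 667 and 267 CPM, with 484 CPM in control cells high for Krt1 and Krt10. Of 16 fatty acid genes 8 were lower, and of 22 cholesterol genes 2. With the sebocytes left out, the 12 rule genes summed to 301 CPM in control and 317 CPM in induced cells. The 9 ranking genes summed to 112 and 257 CPM, and the fatty acid list to 1168 and 1400 CPM. Leaving out cells by the rule limited the sums of the rule and ranking genes in both libraries. Elovl4 alone stood at 92.5 and 246 CPM there. It made up most of the induced sum, so these sums do not describe the other rule genes. Some single genes were lower in the induced cells. The control side here still held the 788 cells with 3 or 4 rule genes. Their Pparg level, given above, was higher than that of other control epithelium as a whole. Their part in these differences was not tested. Pparg stood at 17.4 CPM in control and 1.39 CPM in induced epithelium, Plin2 at 84.0 and 16.2 CPM, and Aldh3a1 at 22.7 and 0.713 CPM. Srebf1 stood at 28.9 and 27.4 CPM in these remaining cells.

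The microRNA of the genotype label and its family are shown with seeds (bases 2 to 8) in capitals, from RefSeq (GRCm38.p6). miR-200b-3p lies at chr4:156055685-156055706 on the minus strand and shares its seed with miR-200c-3p and miR-429-3p, while miR-200a-3p and miR-141-3p differ from it within the seed.
miR-200b-3p: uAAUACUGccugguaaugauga
miR-200c-3p: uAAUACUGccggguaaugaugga
miR-429-3p: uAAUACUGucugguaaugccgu
miR-200a-3p: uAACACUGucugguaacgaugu
miR-141-3p: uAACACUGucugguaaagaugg

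The match to the shared seed, CAGTATT, was searched on the sense strand of 3′ untranslated regions (UTRs), the part of a messenger RNA after its coding sequence. It was found in 15% of 729 genes higher in sebocytes, 12.9% of 774 genes lower and 16.1% of all 6530 compared genes with such a region. Their median lengths were 1031, 950 and 1126.5 bases. Among genes higher and lower in late sebocytes the shares were 14.3% and 17.3%. Sebocyte genes therefore held the match at about the background share. The first match in 5 lipid genes is given with its surroundings, to show which high sebocyte genes carry the letters: Scd1 and Scd2 hold 2 matches each, and Acsbg1, Sqle and Elovl7 1 each. Whether these sites are bound was not tested.
Scd1: cctattccggtaCAGTATTcttataaaatg
Scd2: cccattctggtaCAGTATTgtaaaacggac
Acsbg1: atatgtaattttCAGTATTaaaccttttaa
Sqle: ttcttttgatttCAGTATTtggggtgactc
Elovl7: ggtttgtgtaagCAGTATTcggtcaagtgg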

How the data were processed

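The deposited values were raw counts of UMIs per gene and barcode, made by the authors with Cell Ranger 6.0.0, per the submitters' processing notes. The members and gene lists were chosen with earlier results of these data known. UMIs of a group of cells were summed and given as CPM (counts per 1000000 UMIs of that group), and log2 differences used 5 CPM added to both sides. Genes named beyond the lists came from the 15 largest higher and 10 largest lower differences of sebocytes against other epithelium, or 10 and 10 of late against early, with at least 50 CPM in the higher group and without mitochondrial, ribosomal, haemoglobin and sex-linked genes. Epithelial cells had keratins at 30 or more per 10000, Col1a1 plus Col3a1 under 20 and 14 non-epithelial filter genes under 20. Sebocytes counted as epithelial by their own rule alone, and the filter genes reached up to 24.2 per 10000 in a control sebocyte. Collagen-high cells had Col1a1 plus Col3a1 at 50 or more per 10000 and keratins under 30. Cells in the high Krt1 and Krt10 group had them at 100 or more per 10000. Doublets were scored with Scrublet in scanpy and kept, because the automatic threshold marked only 3 and 2 cells. An alternative removed the top 7%. Thinning drew 2000 UMIs per cell without replacement, in 1 draw per library shared by all groups of its cells, and left out shallower cells, 2 of them control sebocytes. Promoter and microRNA sequences came from RefSeq, and 3′ UTR sequences from GENCODE vM21 on GRCm38. Some list members are counted but not reported here by name. The call rule was tested on simulated counts for sebocytes against other epithelium only. All simulated cells of a group shared the same profile, so the simulation cannot judge calls that rest on a few cells. The software was scanpy 1.11.5, scipy 1.17.1, pandas 2.3.3, numpy 2.4.6 and matplotlib 3.10.9 under Python 3.11.15.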

Additional observations from a re-analysis of the deposited data

How the results depend on the processing

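No paired analysis was possible because each group had 1 library. The share of passing barcodes that were sebocytes, 5.87% in the control and 0.266% in the induced library, became 7.63% and 1.2% with at least 4 rule genes, 4.54% and 0.114% with 6, and 3.15% and 0.0571% with 8, the last chosen after seeing the data. With the sum at 5 per 10000 the shares were 6.59% and 0.418%, and at 20 the shares were 4.87% and 0.0951%. The 783 genes lower in sebocytes than in other epithelium became 401 with 20 CPM added, since low genes then pass the fold limit less often. For late against early, the 855 lower genes became 566 with 20 CPM added and 1692 with no CPM minimum, which admits more genes. Thinned to 2000 UMIs, 165 were higher and 115 lower, of fewer genes compared, and with the Krt5 plus Krt14 ranking 254 were higher and 554 lower. Under that ranking the log2 differences of Cd36 (-0.14), Ctsd (-1.36), Cyp1a1 (-1.78), Cyp4f39 (-1.17), Plin2 (-0.61), Dbi (0.67), Flg (6.90), Krt1 (3.40) and Krt10 (3.34) turned, and the cause was not tested. Without the 10 cells set apart, chosen after seeing the data, Klk10 (-0.66) and Krt6a (-1.72) turned against other epithelium. Cycling shares of sebocytes, early, middle, late and other epithelial cells were 61.8%, 73.5%, 58.4%, 53.5% and 80.7% without thinning, and 28.8%, 45.1%, 25%, 16% and 56.1% with at least 1 G2/M UMI. The early group stood above the late group under each. Of the values of single named genes under all alternatives, 935 counted as unchanged, 17 lost the call, 8 gained one and 11 turned. Unchanged meant the same direction and call for called genes, but only the lack of a call for the others. For rule genes in induced epithelium it meant a close ratio. Genes that could not be compared in an alternative were left out, so thinning to 2000 UMIs gave only 17 late against early values.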

Other observations

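Among barcodes that failed the cell filter, 20 in the control and 7 in the induced library met the marker part of the rule. Of these, 12 and 1 failed on the mitochondrial share alone.

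In single early cells a few genes rested on 1 cell. Defb6, an antimicrobial peptide gene, stood at 372 CPM in the early group, and 1 cell gave 68.7% of its UMIs there. For Calm4 1 cell gave 48.2% of the early UMIs. Krt7 and Krt75, keratins of glands and of the hair follicle, stood at 39.9 and 41.1 CPM in the middle group without the 10 cells set apart, above their early levels of 11.5 and 12.5 CPM and late levels of 8.10 and 7.15 CPM.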
